A study of Mus musculus with 18 samples.

Results

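The interleukin-2 (IL-2) receptor and the STAT5 genes downstream of it were followed in mouse splenic CD4 T cells. The members are 9 genes, taken by name from a matrix of 33006 genes: Il2ra, Il2rb and Il2rg for the receptor, Stat5a and Stat5b for the transcription factors, and Cish, Socs1, Socs2 and Pim1, which cytokine signals induce. All 9 were measured, and all 9 passed the filter on low counts in every fit.

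IL-2 binds a receptor of 3 chains. The alpha chain CD25, encoded by Il2ra, raises its affinity; the beta chain (Il2rb) and the common gamma chain (Il2rg) carry the signal. The kinases JAK1 and JAK3 then phosphorylate STAT5A and STAT5B, which enter the nucleus and switch on target genes. CIS (Cish), SOCS1 and SOCS2 are induced by such signals and dampen them, and PIM1 is a survival kinase. Regulatory T cells (Treg) depend on IL-2, carry CD25 constitutively and require the transcription factor Foxp3, whereas conventional T cells (Tconv) gain CD25 and the beta chain when activated.

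The study compared wild-type (WT) mice with ∆Foxp3 mice, which carry the Foxp3DeltaEGFPiCre allele, in intact animals and in mixed bone marrow chimeras. All mice were male, and live TCRβ+CD4+ spleen cells were sorted for 10x Genomics single-cell RNA-seq. In the V2 kit, ∆Foxp3 mice of 3 weeks (B6 Foxp3DeltaEGFPiCre x ROSA-YFP, replicates A and B) stood beside WT mice of 3 weeks (B6 Foxp3-IRES-GFP, replicates A and B). In the V3 kit, ∆Foxp3 mice of 3 weeks with the same alleles (2 samples) stood beside WT mice of 9 weeks (B6 Foxp3-IRES-GFP x CD45.1, 2 samples), so genotype, age and the CD45.1 allele change together. The same WT line at 9 weeks gave GFP+ Treg (2 samples) and GFP- Tconv (2 samples). For the chimeras, CD45.2 recipients received 1000 rad at 7 weeks of age and CD3-depleted marrow, 50% WT (Foxp3-IRES-GFP, CD45.1) and 50% ∆Foxp3 (Foxp3DeltaEGFPiCre with ROSA-YFP, CD45.1/2), both on B6. After 10 weeks, ∆Foxp3 cells (CD45.1+CD45.2+) and WT cells (CD45.1+CD45.2-) were sorted apart from 3 recipients. The labels give these samples an age of 16 weeks, which is not the sum of those times. Both donor cell types therefore shared hosts that also held WT Treg. The alleles are germline, so every cell of a ∆Foxp3 donor carries the deletion, and both lines carry a fluorescent reporter at Foxp3.

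The 26652 cells fall into 18 samples of 148 to 5271 cells and 955097 to 14887898 UMIs (unique molecular identifiers, each counting 1 captured transcript). Median depth was 2774 to 3143 UMIs per cell in V2 and 4731 to 8856.5 in V3, and the kits were kept apart. Outside the chimeras, the 2 V3 samples of a group share a hashtag in 2 tubes and may come from 1 mouse, so their spread may be technical. Of the chimera samples, tube A held ∆Foxp3 replicates 1 and 3 and WT replicate 2, and tube B held ∆Foxp3 replicate 2 and WT replicates 1 and 3. For ∆Foxp3 replicate 2 and WT replicate 1 of the chimeras the deposited strain field names the other donor, while name, hashtag and sort markers match the labels; results that rest on them are also given without them. All libraries held the T cell markers Cd3d, Cd3e, Cd3g, Trac, Trbc2 and Cd4, summing to 3688 to 6223 CPM (UMIs of a gene scaled to the same total in each library). Of 26549 distinct barcodes, 102 occurred in more than 1 channel.

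The authors' deposited annotation divides the cells into Treg, activated Tconv and resting Tconv. A list of 6 activation genes (Cd44, S100a4, S100a6, Itgb1, Icos, Tnfrsf4) checks the resting label. In resting Tconv its summed level was 5351 and 5652 CPM in the V3 ∆Foxp3 samples, against 127 and 218 in WT mice of 9 weeks and 125 to 205 in the 6 chimera samples. In V2 it was 349 and 525 CPM in ∆Foxp3 and 96.2 and 100 in WT. The cells labelled resting in the V3 ∆Foxp3 samples thus carried activation genes, and the label does not match those markers there.

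For each gene the deposited counts refer to GRCm38, the sequence of mm10. Il2ra lies on chromosome 2 (11642807 to 11693193, plus strand), Il2rb on chromosome 15 (78479256 to 78495271, minus strand) and Il2rg on the X chromosome (101264378 to 101268255, minus strand). Stat5b (11: 100780731 to 100850724, minus strand) and Stat5a (11: 100859351 to 100885169, plus strand) are neighbours. Cish spans 9: 107296026 to 107302784 (plus strand), Socs1 spans 16: 10782240 to 10785536 (minus strand), Socs2 spans 10: 95385362 to 95417180 (minus strand) and Pim1 spans 17: 29490753 to 29496112 (plus strand). Il2ra and Il2rg each overlap an annotated gene on the same strand (Gm37881 and Gm20489), so their counts could be split with it. Stat5a overlaps Stat3, Cish overlaps Gm17040 and Gm17041, and Pim1 overlaps Gm26885, all on the opposite strand, and whether counting used strand was not stated in the sources used here.

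The comparisons below turn on Cish, which rose in ∆Foxp3 mice in both kits, on Socs1, which over all cells rose in V2 alone, and on Il2ra, which fell in their Treg-class cells. Their 250 bases before the annotated start are shown for that reason, from RefSeq on GRCm38.p6, 5′ to 3′ on the gene's strand. Cish is at chr9:107296409-107296658 (plus), Il2ra at chr2:11642542-11642791 (plus) and Socs1 at chr16:10785537-10785786 (minus). The gene spans given above come from another annotation, in which Cish starts at 107296026. The Cish window thus lies inside that span and not before it. Capitals mark matches to GAAA, any 2 bases and GAAA, a core of interferon-response elements.
Cish: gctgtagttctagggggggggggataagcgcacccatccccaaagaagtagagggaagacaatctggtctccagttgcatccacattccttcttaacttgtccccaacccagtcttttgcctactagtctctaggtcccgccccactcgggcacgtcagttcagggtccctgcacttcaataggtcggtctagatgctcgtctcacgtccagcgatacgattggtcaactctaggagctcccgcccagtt
Il2ra: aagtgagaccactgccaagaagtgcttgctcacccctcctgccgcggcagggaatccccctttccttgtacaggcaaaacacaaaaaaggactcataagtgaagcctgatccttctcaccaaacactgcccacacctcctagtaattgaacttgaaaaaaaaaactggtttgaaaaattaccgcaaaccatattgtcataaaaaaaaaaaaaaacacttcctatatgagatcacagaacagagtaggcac
Socs1: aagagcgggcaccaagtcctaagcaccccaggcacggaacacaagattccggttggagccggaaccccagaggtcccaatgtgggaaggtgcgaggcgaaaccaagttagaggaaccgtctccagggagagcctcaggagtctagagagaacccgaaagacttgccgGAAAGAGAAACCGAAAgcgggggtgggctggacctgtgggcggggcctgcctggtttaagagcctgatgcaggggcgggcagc
Windows of this length were found for 7 of the 9 members, 10 windows in all. Those of Pim1, Stat5a and Stat5b also lie wholly or partly inside the gene spans given above. The STAT5-type letters TTCNNNGAA, searched on both strands, occurred in 0 of these 10 and in 7.02% of 32851 promoter windows. The same with 4 free bases (TTC, 4 bases, GAA) occurred in 0 of 10 and in 5.85% of windows. The interferon-type letters, also searched on both strands, occurred in 1 of 10, in Socs1 as a pair of overlapping matches, and in 2.98% of windows. These matches describe letters in a short window and nothing about binding.

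The sorted reference samples gave the level of each gene in Treg and Tconv of healthy adults. Sorted Treg carried 6 of the 9 genes at higher levels than sorted Tconv, namely Il2ra, Il2rb, Cish, Socs1, Socs2 and Pim1, and none at a lower level. Among all 10918 genes tested, 12.2% passed the same threshold and 6.16% were higher (edgeR quasi-likelihood F test, Benjamini-Hochberg adjusted p below 0.05). Il2rg, Stat5a and Stat5b did not pass.

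Il2ra stood at 263 and 196 CPM in sorted Treg and at 0 (0 UMIs) and 4.19 CPM (4 UMIs) in sorted Tconv. The groups lay far apart, and over the group sums the ratio was 167-fold (exact 95% interval 64.95 to 614.6, counting error only). An Il2ra UMI was found in 54.4% (exact 95% interval 48.8% to 59.8%) and 50.2% (43.6% to 56.8%) of sorted Treg cells. In sorted Tconv it was found in 0 of 362 cells, which allows a share of up to 0.829%, and in 2.03% of 148 cells, with median depths of 5176.5 and 6402 UMIs against 4731 and 5747 in the Treg. After each cell was thinned to 1500 UMIs, 26.9% and 20.3% of Treg cells and no Tconv cell kept an Il2ra UMI. CD25 transcripts were thus all but limited to the sorted Treg, many of which showed none at this depth.

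Il2rb, shared by the IL-2 and IL-15 receptors, was 158 and 152 CPM in Treg and 11.4 and 58.6 in Tconv (log2 fold change 2.20 ± 0.51 SE, edgeR adjusted p = 0.0101). On the log2 scale, though not in CPM, the 2 Tconv samples differed from each other about as widely as their mean differed from Treg. Without Tconv replicate 1 the edgeR calls of Il2rb (1.20), Socs1 (1.12) and Socs2 (4.04) were lost. Cish was 81.9 and 77.4 CPM in Treg and 7.75 and 9.42 in Tconv (2.99 ± 0.29, adjusted p = 1.18e-05, edgeR). Pim1 was 188 and 244 CPM in Treg and 52.2 and 53.4 in Tconv (1.77 ± 0.16, adjusted p = 6.07e-06, edgeR). Both feedback genes were higher in each Treg sample than in each Tconv sample.

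Socs2, a SOCS protein best known for restraining growth hormone signals, was 62.7 and 56.4 CPM in Treg and 1.03 and 3.14 in Tconv, the latter from 5 UMIs. Its ratio over the group sums was 34.5 (exact 95% interval 14.5 to 108). Socs1, which blocks JAK kinases directly, was 198 and 117 CPM in Treg and 60.5 and 63.9 in Tconv (1.11 ± 0.21, adjusted p = 0.0022, edgeR), so its Treg samples were the more scattered. Il2rg was 333 and 361 CPM against 224 and 267, Stat5b 56.0 and 65.9 against 37.2 and 35.6, and Stat5a 42.2 and 31.2 against 20.7 and 17.8. For these 3 the adjusted p was 0.0765, 0.0924 and 0.192 (edgeR). Of 10 B cell markers, 9 of which were in the matrix, 3 of 7 tested were higher in sorted Treg, summing to 411 and 528 CPM against 206 and 216 in Tconv; their part was not tested.

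**Figure D1:**
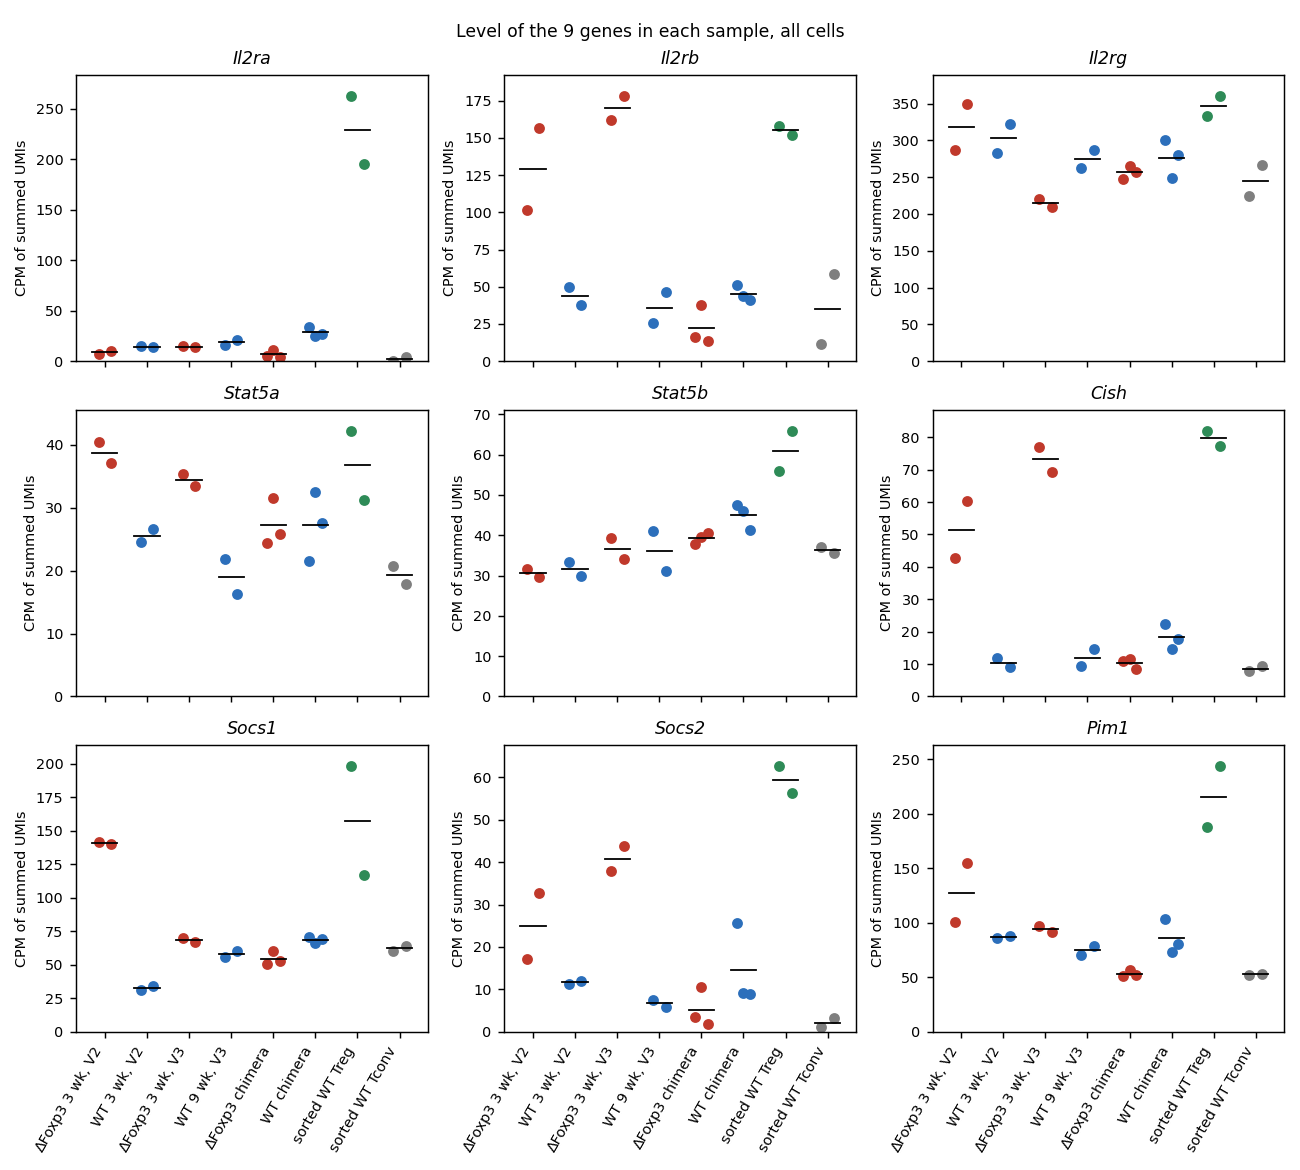
Level of each of the 9 genes in every sample (CPM of UMI sums over all cells, linear axes from 0, 1 panel per gene); each point is 1 sample. Il2ra spans from 0 UMIs in a sorted Tconv sample to 263 CPM in sorted Treg, while Il2rg stays between 210 and 361 CPM in all 18 samples.

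Across the deposited clusters, the 9 genes fell into different patterns, given here as a description because the clusters were made from the same cells. Il2ra was highest in resting Treg in both kits (300 CPM in V3, 204 in V2). In V3 it was 211 CPM in the cluster called furtive Treg, 101 in tissue-like Treg and 74.1 in activated Treg, and it fell to 4.58 in the main resting Tconv cluster and 3.16 in Th1 cells. In V2 the cluster called Treg type A had 79.5 CPM, activated Treg 31.3, follicular helper cells (Tfh) 23.3 and Th1 cells 2.28. These values pool both genotypes. In V2 ∆Foxp3 mice activated Treg had 6.04 and 3.97 CPM, from 2 and 1 UMIs, beside 4.63 and 6.74 in the activated Tconv class.

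Il2rb did not separate Treg from activated cells. In V2 it was 353 CPM in activated Treg, 352 in NKT cells and 277 in Th1 cells. In V3 it was 197 in activated Treg, 191 in resting Treg, 179 in NKT cells and 174 in Th1 cells. Neighbours in this order lay close together, and the main resting Tconv cluster had 19.9 CPM in V2 and 26.2 in V3.

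Among the feedback genes, Socs2 was 94.9 CPM in V3 and 127 in V2 in resting Treg, and in Tfh cells, which respond poorly to IL-2, it was 5.63 and 5.30. Socs1 had its high values elsewhere too: 209 CPM in V3 resting Treg, 209 in V2 type A Treg, and 118 and 152 in the resting Tconv cluster defined by the interferon-response gene Irf7. Th1 cells had 52.3 and 24.5 CPM of Socs1. Cish was 109 CPM in V3 resting Treg and 139 in V2 type A Treg, and Pim1 was 386 in V2 resting Treg and 294 in V3 tissue-like Treg. Stat5a was 55.9 CPM in V3 and 47.7 in V2 in Tfh cells, the top of its V3 order. In V3 Tconv clusters Stat5b ran from 31.3 CPM in dividing to 46.9 in tissue-like cells, and Il2rg from 192 in dividing cells to 427 in the activated Irf7 cluster.

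**Figure D2:**
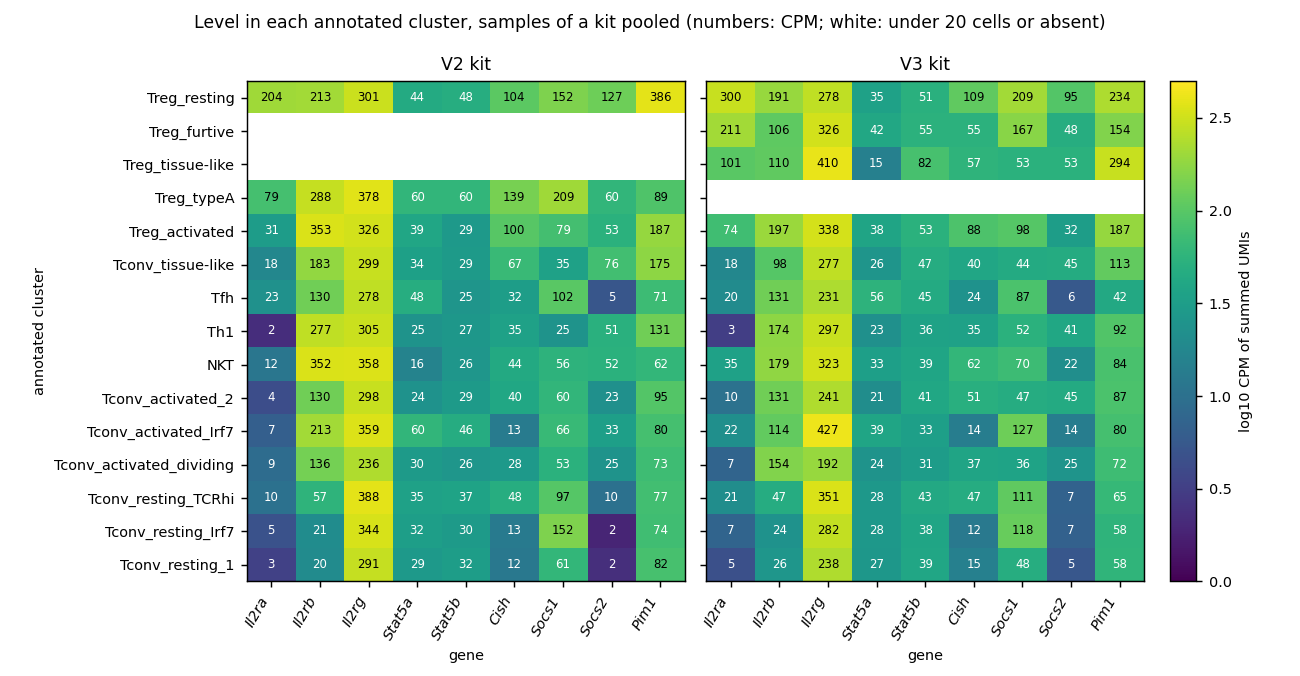
Level of each gene by deposited cluster (CPM of UMI sums over the samples of a kit, coloured on a log10 scale), V2 and V3 shown apart. The Treg clusters stand above the Tconv clusters for Il2ra, with 300 CPM in V3 resting Treg against 4.58 in the main resting Tconv cluster, whereas Il2rb is about as high in NKT and Th1 cells as in Treg.

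In ∆Foxp3 mice of 3 weeks measured in V2, transcripts of the beta chain and of 2 feedback genes were raised over age-matched WT mice, while the alpha chain was lower. Cish, Socs1, Il2rb and Stat5a rose and Il2ra fell, 5 of 9 genes, where 24.0% of 10675 genes passed. In sums over all cells, fewer cells of a type and less RNA per cell cannot be told apart, so values within classes follow further on.

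Cish was 42.7 and 60.2 CPM in ∆Foxp3 and 11.8 and 9.14 in WT (log2 fold change 2.20 ± 0.19, edgeR adjusted p = 0.00184). Socs1 was 142 and 140 CPM against 31.0 and 34.1 (2.06 ± 0.09, adjusted p = 0.000259, edgeR). Il2rb was 102 and 157 CPM against 49.6 and 37.7 (1.49 ± 0.21, adjusted p = 0.00617, edgeR). For all 3 genes both ∆Foxp3 samples stood above both WT samples.

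Il2ra was 7.48 and 10.1 CPM in ∆Foxp3 and 14.8 and 13.97 in WT, a drop of 0.83 ± 0.17 on the log2 scale (edgeR adjusted p = 0.0181). Stat5a was 40.4 and 37.0 CPM against 24.5 and 26.5 (0.56 ± 0.11, adjusted p = 0.0152, edgeR). The groups did not overlap for either gene, but both calls were lost with DESeq2 and without either WT replicate (Il2ra -0.78 to -0.84, Stat5a 0.48 to 0.62). Socs2 (17.2 and 32.8 against 11.4 and 12.0 CPM, adjusted p = 0.0527 in edgeR) and Pim1 (101 and 155 against 86.3 and 88.1, adjusted p = 0.106) did not pass. Il2rg and Stat5b overlapped between the groups. Summed over 6 genes, activation markers were 1315 and 2077 CPM in ∆Foxp3 and 302 in each WT sample, and their part in these differences was not tested.

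In V3, where ∆Foxp3 mice of 3 weeks were set beside WT mice of 9 weeks, 5 of 9 genes passed against a background of 43.0% of genes. Cish, Socs2, Il2rb and Stat5a were higher and Il2rg lower. Cish was 77.0 and 69.3 CPM against 9.39 and 14.6 (2.46 ± 0.20, edgeR adjusted p = 2.66e-07). Socs2 was 37.8 and 43.8 CPM against 7.56 and 5.83 (2.34 ± 0.57, adjusted p = 0.00394, edgeR). Il2rb was 162 and 178 CPM against 25.4 and 46.2 (2.10 ± 0.39, adjusted p = 0.000481, edgeR).

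All 3 were severalfold higher in each ∆Foxp3 sample. Il2rg, the chain shared with the IL-4, IL-7, IL-9, IL-15 and IL-21 receptors, was 220 and 210 CPM against 263 and 287 (edgeR log2 fold change -0.57 ± 0.08, adjusted p = 5.07e-05), a small but tight difference. That fold change includes scaling between samples, and the ratio of the unscaled group sums was 0.79. Stat5a was 35.3 and 33.4 CPM against 21.8 and 16.2 (0.58 ± 0.21, adjusted p = 0.0344 in edgeR), a call that was lost without WT replicate 2 or either ∆Foxp3 replicate (0.43 to 0.64). Il2ra was 15.2 and 13.8 CPM against 16.0 and 21.2 (-0.55 ± 0.36, adjusted p = 0.229). Socs1, 69.9 and 67.0 CPM against 55.4 and 60.4, differed by 0.02 ± 0.17 on the log2 scale after scaling (adjusted p = 0.927, edgeR). Activation markers summed to 6878 and 6604 CPM in the ∆Foxp3 samples and 674 and 1302 in WT. Of 11 myeloid markers, which summed to 215 and 234 CPM against 87.1 and 108, 6 of the 10 tested were higher. Csf1r was at 0 in both WT samples, where 3 UMIs make 0.687 and 1.25 CPM. In V3 cells pooled by class, Cst3 of this list stood at 85.7 to 158 CPM, and the other genes reached at most 6.21 (Fcer1g). The part of either list in these differences was not tested.

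In the chimeras, where ∆Foxp3 and WT cells came from the same recipients, fewer members passed than in intact mice. Il2ra and Pim1 were lower in ∆Foxp3 cells and no member was higher, 2 of 9 where 0.458% of 10918 genes passed and 0.247% were lower. Il2ra was 4.96, 11.5 and 4.21 CPM in ∆Foxp3 cells and 33.9, 25.2 and 27.1 in WT cells, a drop of 2.05 ± 0.27 on the log2 scale (edgeR adjusted p = 0.00136). The groups did not overlap, and each recipient had less Il2ra in its ∆Foxp3 than in its WT cells.

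The tube differs between the genotypes in these mice, so the Il2ra values were also read within tubes. In tube A, ∆Foxp3 cells had 4.96 and 4.21 CPM and WT cells 25.2. In tube B, ∆Foxp3 cells had 11.5 CPM and WT cells 33.9 and 27.1. With the channel as a term the log2 difference was -2.02 (adjusted p = 0.00043), without mouse 2 it was -2.56 and without the samples of conflicting strain -2.36, so the drop was about as large in each.

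Pim1 was 51.1, 56.9 and 52.0 CPM in ∆Foxp3 cells and 103, 73.4 and 80.4 in WT cells (-0.54 ± 0.10, edgeR adjusted p = 0.0233). Its groups did not overlap, but the call was lost without ∆Foxp3 replicate 1 or 3 or WT replicate 1 or 3, with values of -0.41 to -0.58. Without the samples of conflicting strain it was -0.44 (adjusted p = 0.0327, edgeR). Cish was 11.02, 11.7 and 8.33 CPM against 22.4, 14.7 and 17.7 (-0.67 ± 0.16, adjusted p = 0.0891, edgeR), and with the recipient as a block it passed (-0.69, adjusted p = 0.0190).

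Il2rb stood at 16.1, 37.8 and 13.4 CPM in the ∆Foxp3 cells, while WT cells of these mice had 50.9, 43.7 and 40.9 (adjusted p = 0.219, edgeR). The level of Socs2 was 3.45, 10.504 and 1.75 CPM against 25.8, 9.16 and 8.83 (adjusted p = 0.204, edgeR). In both genes ∆Foxp3 replicate 2, the sample with 4.84% Treg by the deposited classes, stood above the other ∆Foxp3 samples with 2.39% and 2.27%. Without mouse 2, Il2rb (-1.47, adjusted p = 0.0138), Socs2 (-2.52, adjusted p = 0.00585) and Cish (-0.88, adjusted p = 0.0178) were called as well, 5 members in all. The WT chimera cells held 8.76% to 9.77% Treg. A list of 6 Treg marker genes (Foxp3, Ikzf2, Ctla4, Lrrc32, Tnfrsf18, Itgae) summed to 96.0 to 208 CPM in ∆Foxp3 and 278 to 414 in WT cells. Foxp3 itself is the gene that the compared alleles alter, and Tnfrsf18 is also among the other STAT5 target genes read further on. The part of the Treg share or of these markers in the all-cell differences was not tested.

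The genotype effect differed between intact mice and chimeras in 6 of 9 genes when the difference itself was tested in the V3 fit, against 36.8% of all genes. The effect was more positive in intact mice for Socs2 (by 3.82 on the log2 scale), Cish (3.12), Il2rb (3.08), Il2ra (1.4997) and Pim1 (0.66), and more negative for Il2rg (-0.60). Without WT replicate 1 of 9 weeks the Il2ra difference (1.30) did not pass. Il2rb, Cish and Socs2 thus rose in ∆Foxp3 mice in V3 and were not called in chimera cells of that genotype, whereas for Socs1 neither the V3 effect nor the difference passed (0.24 ± 0.22, adjusted p = 0.422, edgeR). Age also differs between the WT groups used here, and its part cannot be told apart from that of the host.

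**Figure D3:**
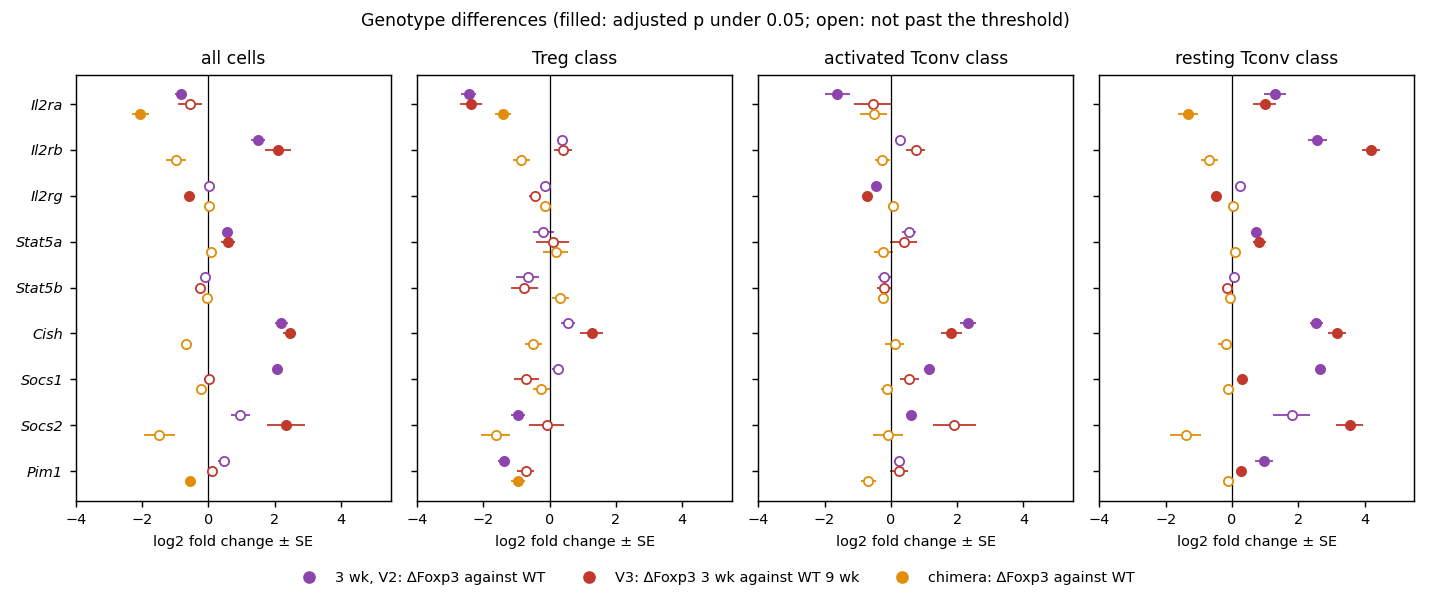
Genotype effect (∆Foxp3 over WT, log2 fold change with its SE from edgeR) for the 9 genes in V2, V3 and the chimeras, over all cells and within each deposited class. Cish is at 2.20 and 2.46 over all cells of intact mice and at -0.67 in the chimeras, and Il2ra is below 0 in the Treg class in all 3 comparisons.

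Within the Treg class, defined by the authors from expression and present in ∆Foxp3 samples too, Il2ra was lower in ∆Foxp3 cells in all 3 comparisons. In V2, Il2ra was 44.9 and 28.4 CPM in ∆Foxp3 Treg-class cells (189 and 113 cells) and 197 and 206 in WT (276 and 214 cells), a drop of 2.44 ± 0.23 on the log2 scale (edgeR adjusted p = 8.67e-08). In V3 it was 44.4 and 32.4 CPM (65 and 66 cells) against 208 and 159 (37 and 29 cells), a drop of 2.37 ± 0.34 (adjusted p = 1e-05, edgeR). In the chimeras it was 62.3, 133 and 63.3 CPM (51, 44 and 47 cells) against 227, 231 and 256 (73, 162 and 74 cells), a drop of 1.41 ± 0.23 (adjusted p = 0.00106, edgeR).

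No ∆Foxp3 sample reached any WT sample of its comparison. Without the chimera samples of conflicting strain the chimera log2 fold change was -1.85 ± 0.28 (edgeR adjusted p = 0.000544). Other markers moved in these cells. Activation genes summed to 2426 and 2944 CPM in ∆Foxp3 against 1007 and 834 in V2, to 5751 and 5548 against 1682 and 2746 in V3, and to 1367, 1941 and 1195 against 3194, 2247 and 1667 in the chimeras, where 4 of 6 were called higher, 3 of 6 higher and 1 of 6 lower in turn. Treg markers summed to 968 and 1076 against 1161 and 1229 in V2, to 1292 and 1158 against 1325 and 1893 in V3, and to 740.1, 1469.7 and 819 against 2044, 1837 and 1515 in the chimeras, with 2 of 5, 2 of 6 and 1 of 6 tested called lower. The Treg list, named above, includes Foxp3, the gene that the compared alleles alter. The part of these lists in the Il2ra result was not tested. The effect in intact mice and chimeras differed by -0.97 ± 0.42, which did not pass (adjusted p = 0.252, edgeR). Both Treg subsets took part in V2: resting Treg had 99.8 and 86.7 CPM of Il2ra in ∆Foxp3 against 237 and 225 in WT, and activated Treg 6.04 and 3.97 against 55.0 and 130. In V3 the values were 103 and 73.0 against 282 and 264 in resting Treg and 17.2 and 8.31 against 81.1 and 79.8 in activated Treg. In the chimeras, resting Treg had 49.6, 291 and 96.2 CPM in ∆Foxp3 against 289, 371 and 385 in WT, the ∆Foxp3 value of 291 coming from 16 cells. The ranges of the 2 genotypes met there for ∆Foxp3 replicate 2 and WT replicate 1, and elsewhere they stayed apart except in chimera activated Treg (77.8, 21.9 and 19.7 against 157, 47.6 and 78.2).

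**Figure D4:**
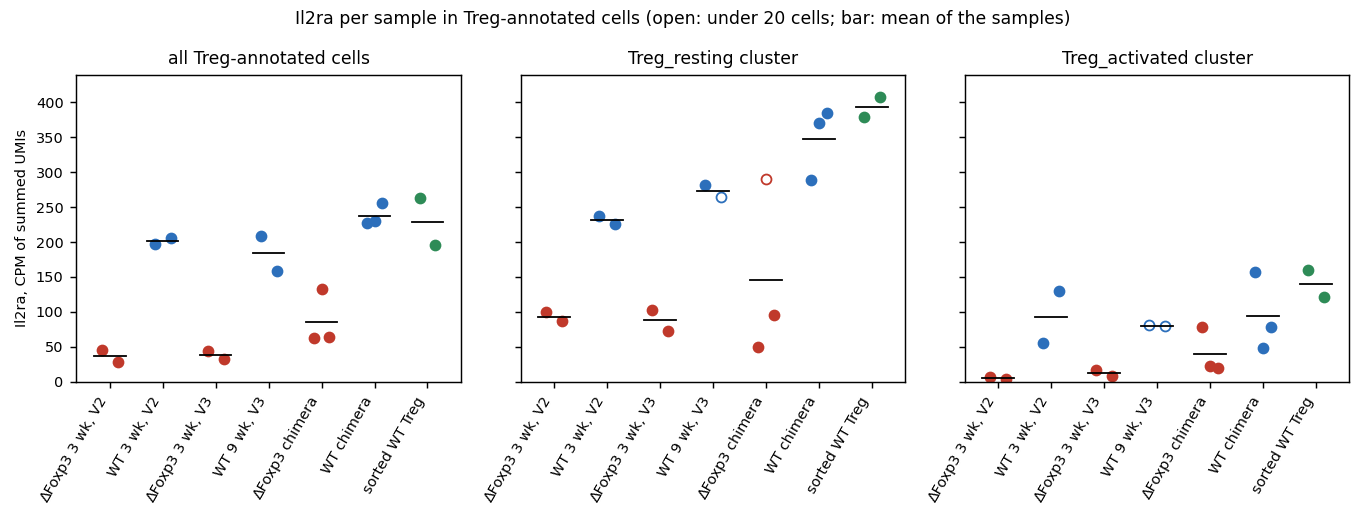
Il2ra level (CPM of UMI sums) in Treg-class cells of each sample by group, with the resting and activated Treg clusters beside it; open points hold under 20 cells and bars are means of the samples. ∆Foxp3 points lie between 28.4 and 133 CPM in the whole class and WT points between 159 and 256.

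The other members behaved differently within Treg-class cells. In V2, 3 of 9 genes passed (Il2ra, Pim1 and Socs2, all lower; background 16.3% of 5492 genes, 7.79% lower). Pim1 was 176 and 139 CPM against 347 and 456 (-1.37 ± 0.17, edgeR adjusted p = 6.13e-06), and Socs2 was 59.9 and 71.0 against 112 and 129 (-0.96 ± 0.22, adjusted p = 0.0035). The Socs2 call was lost with DESeq2 (-0.94) and without ∆Foxp3 replicate A (-0.82). In V3, 2 of 9 passed (background 7.09%), Il2ra lower and Cish higher, with Cish at 108 and 157 CPM against 44.6 and 62.5 (1.26 ± 0.34, adjusted p = 0.018). That Cish call was lost with DESeq2 (1.27, adjusted p = 0.0831) and without either WT replicate or ∆Foxp3 replicate 2 (0.96 to 1.47).

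In chimera Treg-class cells, 2 of 9 passed (background 0.359%, and 0.179% lower), Il2ra and Pim1, both lower. Pim1 was 101, 210 and 110 CPM in ∆Foxp3 cells and 366, 235 and 263 in WT cells (-0.95 ± 0.21, edgeR adjusted p = 0.0279), without overlap. This call was lost with DESeq2 (-0.98) and without WT replicate 1 or ∆Foxp3 replicate 1 or 3 (-0.77 to -0.82), and was kept without the samples of conflicting strain (-1.14, adjusted p = 0.0103, edgeR). Il2rb was 54.5, 180 and 97.1 CPM against 227, 235 and 146, and Socs2 was 19.5, 64.3 and 0 against 141, 65.8 and 75.1. ∆Foxp3 replicate 2 overlapped the WT range for Il2rb and lay just below it for Socs2. With the recipient as a block both passed (Il2rb -0.82, adjusted p = 0.036; Socs2 -1.65, adjusted p = 0.00662).

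Cish was the only member whose genotype effect in Treg-class cells differed between intact mice and chimeras (by 1.76 on the log2 scale, edgeR adjusted p = 0.0145; 3.34% of genes passed, 1.56% upward). Without WT replicate 1 of 9 weeks (1.58) or V3 ∆Foxp3 replicate 2 (1.46) that difference did not pass. In the chimeras it was 54.5, 90.0 and 59.1 CPM in ∆Foxp3 and 131, 86.4 and 89.2 in WT cells. Il2rg, Stat5a, Stat5b and Socs1 passed in none of the Treg-class comparisons.

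In activated Tconv of intact ∆Foxp3 mice Cish rose in both kits, and Socs1 and Socs2 rose in V2. In V2, 5 of 9 genes passed against a background of 15.2%. Cish was 61.9 and 72.9 CPM in ∆Foxp3 and 16.8 and 9.20 in WT (2.33 ± 0.24, edgeR adjusted p = 0.000197). Socs1 was 64.9 and 71.0 CPM against 30.4 and 30.2 (1.16 ± 0.16, adjusted p = 0.0012), and Socs2 was 50.1 and 55.1 against 35.9 and 32.2 (0.62 ± 0.17, adjusted p = 0.0335). For each of these the ∆Foxp3 samples were the higher ones.

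Il2ra and Il2rg were lower in the same V2 cells. Il2ra was 4.63 and 6.74 CPM against 20.6 and 13.1 (-1.62 ± 0.38, edgeR adjusted p = 0.0166), and Il2rg was 247 and 274 against 357 and 354 (-0.45 ± 0.10, adjusted p = 0.0151). With DESeq2, Cish and Socs1 alone were called. Without WT replicate A the calls of Il2ra (-1.26), Il2rg (-0.47) and Socs2 (0.67) were lost, and without WT replicate B those of Il2rg (-0.44) and Socs2 (0.56). Il2rb was 234 and 236 CPM against 234 and 152, so activated cells of both genotypes carried it.

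In V3 activated Tconv, 2 of 9 passed (background 10.0%): Cish rose, at 75.0 and 57.7 CPM against 17.0 and 21.4 (1.82 ± 0.32, edgeR adjusted p = 0.00191), and Il2rg fell, at 211 and 196 against 339 and 342 (-0.72 ± 0.14, adjusted p = 0.00476). Without WT replicate 1 neither passed (1.66 and -0.71), and without ∆Foxp3 replicate 2 Il2rg did not (-0.67). In the chimeras none passed in edgeR (background 0.137%) or in DESeq2, and at an unadjusted p below 0.05 there was 1, Pim1, at 44.3, 61.5 and 71.2 CPM in ∆Foxp3 and 131, 84.8 and 90.1 in WT cells. Cish in chimera activated Tconv was 11.4, 22.9 and 16.5 CPM in ∆Foxp3 and 18.0, 15.6 and 16.5 in WT, overlapping throughout. The effect on Cish differed between intact mice and chimeras by 1.71 (adjusted p = 0.0241, edgeR) and that on Il2rg by -0.78 (adjusted p = 0.016), 2 of 9 genes where 8.19% passed. The Cish difference was lost without WT replicate 1 or 2 of 9 weeks, V3 ∆Foxp3 replicate 1, chimera WT replicate 1 or chimera ∆Foxp3 replicate 1 or 3 (1.48 to 1.83), and that of Il2rg without WT replicate 1 or V3 ∆Foxp3 replicate 2 (-0.76 and -0.73).

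Cells labelled resting Tconv changed most members in intact mice, and the activation markers given above moved with them. In V2, 6 of 9 genes rose and none fell (background 19.6% of 10071 genes, 12.0% higher). Socs1 was 166 and 191 CPM in ∆Foxp3 and 26.1 and 29.8 in WT (2.65 ± 0.11, edgeR adjusted p = 9.73e-06). Il2rb was 42.2 and 75.8 CPM against 10.3 and 7.43 (2.57 ± 0.28, adjusted p = 0.000832), and Cish was 29.1 and 41.6 against 5.61 and 5.81 (2.54 ± 0.20, adjusted p = 0.000154). All 3 were several times higher in both ∆Foxp3 samples.

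The smaller rises in V2 were Il2ra at 5.36 and 9.64 CPM against 3.01 and 2.26 (1.30 ± 0.34, edgeR adjusted p = 0.0326), Pim1 at 90.4 and 182 against 67.1 and 65.6 (0.96 ± 0.27, adjusted p = 0.0399) and Stat5a at 42.0 and 39.4 against 23.8 and 25.5 (0.73 ± 0.10, adjusted p = 0.00206). The Il2ra and Pim1 calls were lost with DESeq2 and without either WT replicate (Il2ra 1.19 to 1.57, Pim1 0.99), and that of Stat5a without WT replicate A (0.66). Il2ra rose in cells labelled resting while it fell in Treg-class and activated cells of the same mice. Of 5 Treg markers tested in the resting-labelled cells, 4 were also higher, and the list of 6 summed to 156 and 206 CPM in ∆Foxp3 and 87.6 and 86.4 in WT; its part was not tested. The Socs1 difference held in clusters apart: in the main resting cluster it was 146 and 163 CPM against 23.1 and 26.8, in the Irf7 resting cluster 263 and 325 against 54.3 and 50.9, and in Th1 cells 42.5 and 24.7 against 11.4 and 12.6.

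In V3, 8 of 9 genes passed in resting-labelled cells (background 41.5% of 10182 genes). Il2rb was 144 and 147 CPM in ∆Foxp3 and 3.98 and 11.4 in WT (4.19 ± 0.27, edgeR adjusted p = 1.35e-11). Socs2 was 31.4 and 33.7 CPM against 2.56 and 1.71 (3.55 ± 0.42, adjusted p = 2.62e-07), and Cish was 75.2 and 70.4 against 5.97 and 7.96 (3.16 ± 0.27, adjusted p = 1.37e-09). These levels were near those of activated Tconv in the same samples, where Il2rb was 175 and 192 CPM, Socs2 42.9 and 50.0 and Cish 75.0 and 57.7.

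Il2ra (15.1 and 16.1 against 6.54 and 6.26 CPM, 0.99 ± 0.35, edgeR adjusted p = 0.0247) and Stat5a (40.2 and 37.9 against 19.9 and 14.8, 0.82 ± 0.19, adjusted p = 0.00143) were higher too. Socs1 (81.5 and 87.7 against 53.5 and 62.0 CPM) and Pim1 (95.4 and 86.2 against 63.7 and 58.0) rose by 0.29 and 0.27 on the log2 scale after scaling. Il2rg (224 and 221 against 247 and 265 CPM) fell by 0.48 after scaling. Ratios of the unscaled group sums were 1.51 for Socs1, 1.46 for Pim1 and 0.88 for Il2rg, so the sizes of these changes depend on the scaling. DESeq2 did not call Il2ra, Socs1 or Pim1. Without single WT or ∆Foxp3 samples Il2ra (0.95 to 1.03; either WT or ∆Foxp3 replicate 2), Socs1 (0.16 and 0.25; WT replicate 1 or ∆Foxp3 replicate 2) and Pim1 (0.20 to 0.36; either WT or ∆Foxp3 replicate 1) were lost. Stat5b was the member that did not pass. The activation markers in these ∆Foxp3 cells summed to 5351 and 5652 CPM, and a GFP UMI was found in 35.7% and 31.7% of them against 0.456% and 1.98% in WT. The GFP shares are not directly comparable, because the reporter alleles differ between the lines. The ∆Foxp3 samples were also deeper over all cells (median 6735 and 8856.5 UMIs per cell against 5181.5 and 6489). Whether RNA of the ROSA-YFP allele entered the GFP count was not tested. Treg markers summed to 433 and 405 CPM in the ∆Foxp3 cells and to 63.7 and 88.2 in WT, with 3 of 5 tested higher. The part of these markers in the V3 resting-class result was not tested.

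Chimera resting Tconv lacked these rises. Il2ra fell, at 2.56, 3.56 and 2.04 CPM in ∆Foxp3 and 11.1, 5.76 and 5.03 in WT cells (-1.33 ± 0.29, edgeR adjusted p = 0.0196), 1 of 9 genes where 1.28% passed and 0.412% were lower. The groups did not overlap, but the call was lost without WT replicate 1, without ∆Foxp3 replicate 1 or 3, without the samples of conflicting strain (-0.99 to -1.33), and without cells holding 2 or more markers of other cell types (-0.45). Treg markers fell with it, 3 of 5 tested, at 70.7, 85.4 and 73.3 CPM in ∆Foxp3 and 138, 103 and 100.1 in WT cells. Erythroid markers, 4 of 4 tested lower, summed to 10.45, 2.45 and 10.9 CPM against 2.77, 79.7 and 295, so they were low in WT replicate 1, where Il2ra was highest. The part of these lists was not tested. Il2rb was 6.71, 11.1 and 5.01 CPM against 14.2, 9.41 and 13.8, with ∆Foxp3 replicate 2 inside the WT range. Cish was 9.86, 4.45 and 5.93 CPM against 10.47, 6.74 and 10.3, also overlapping. The effect differed between intact mice and chimeras in 8 of 9 genes (background 33.5%), Il2rb by 4.87, Socs2 by 4.95 and Cish by 3.34 on the log2 scale, with Stat5b as the exception.

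**Figure D5:**
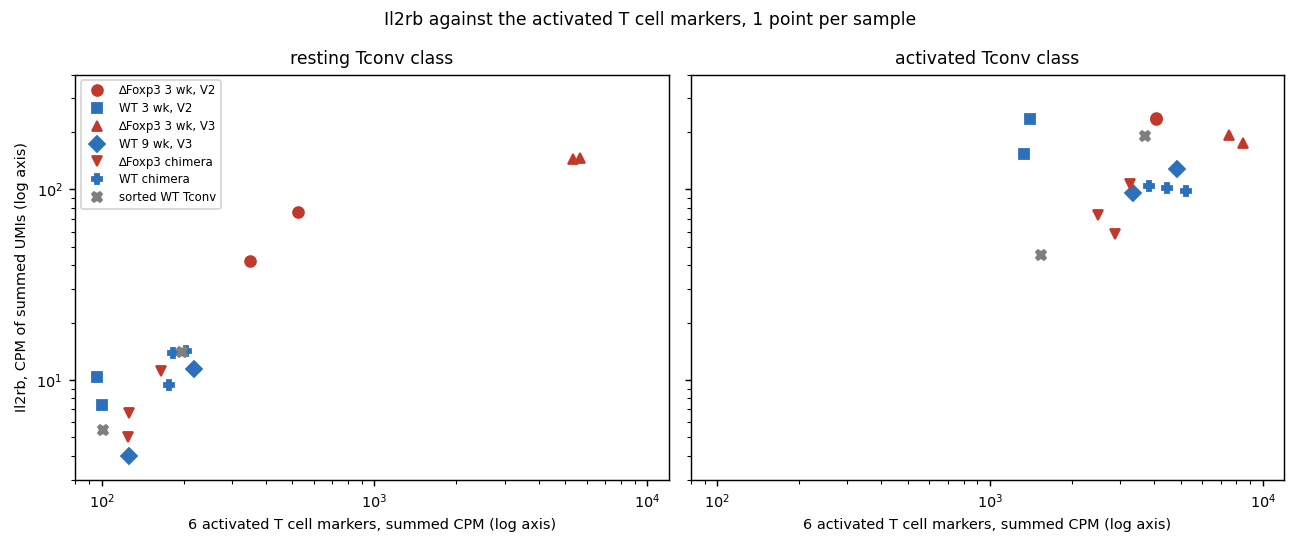
Il2rb level against the summed level of 6 activation genes (both CPM, log axes) in cells labelled resting and activated Tconv, 1 point per sample. In resting-labelled cells the V3 ∆Foxp3 samples, at 5351 and 5652 CPM of activation genes, have the highest Il2rb (144 and 147 CPM), while the chimera ∆Foxp3 samples sit with the WT samples.

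The source of the Il2ra transcripts shifted between classes. Treg-class cells gave 66.1% and 74.2% of all Il2ra UMIs in V2 WT samples and 34.6% and 23.3% in V2 ∆Foxp3, although they made up 5.24% and 5.46% of WT and 5.74% and 7.84% of ∆Foxp3 cells. In V3 the shares were 60% and 54.9% in WT and 17.4% and 14.6% in ∆Foxp3. There the Treg class made up 4.55% and 8.24% of WT and 6.49% and 7.05% of ∆Foxp3 cells. Resting-labelled cells gave 51.3% and 51.2% of Il2ra UMIs in V2 ∆Foxp3, 16.7% and 13.2% in V2 WT, and 45.9% and 50.0% in V3 ∆Foxp3. In the chimeras the Treg class gave 27.1%, 44.9% and 31.2% in ∆Foxp3 and 56.6%, 74.9% and 74.1% in WT cells, so the ∆Foxp3 shares were lower in every comparison. Unlike in V2, the chimera Treg class was also smaller in ∆Foxp3, at 2.39%, 4.84% and 2.27% of cells against 9.77%, 8.76% and 8.82% in WT. The part of cell number in these chimera shares was not tested.

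Within WT Treg, cells were split by whether they kept an Il2ra UMI after thinning to 1500 UMIs. Socs2 was found in 15.7% (exact 95% interval 8.88% to 24.98%) of 89 such cells and 6.20% (3.51% to 10.0%) of the other 242 in sorted Treg replicate 1, and in 14.9% (6.20% to 28.3%) of 47 against 3.80% (1.54% to 7.68%) of 184 in replicate 2. In V2 WT Treg-class cells the shares were 28.1% (17.0% to 41.5%) against 10.0% (6.40% to 14.8%) in replicate A and 30.6% (18.3% to 45.4%) against 9.09% (5.18% to 14.6%) in B. Cells with CD25 transcripts thus more often held Socs2 in these 4 samples, and in chimera WT replicate 2 the shares were 8.57% and 7.09%. Intervals cover counting error only, cells of a sample are not replicates, and no test was made.

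Socs1 showed the same order in all 5 samples with enough cells: 24.7% against 17.4% and 25.5% against 12.5% in sorted Treg, 31.6% against 10.96% and 24.5% against 13.9% in V2 WT, and 34.3% against 11.8% in chimera WT replicate 2. Pim1 was likewise higher in all 5, at 28.1% against 26.9% and 46.8% against 30.4% in sorted Treg, 54.4% against 37.9% and 53.1% against 42.4% in V2 WT, and 42.9% against 24.4% in the chimera sample. Cish and Il2rb had the same order in all 5, Il2rb by as little as 20.2% against 19.8% in sorted Treg replicate 1. Il2rg and Stat5a had no order shared by all 5. Stat5b was found less often beside Il2ra in 4 of the 5, at 4.49% against 9.92% and 12.8% against 12.0% in sorted Treg, 3.51% against 6.85% and 4.08% against 9.09% in V2 WT, and 8.57% against 9.45% in the chimera sample.

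The rest of the pathway was read from 4 lists. Of all genes tested over all cells, 12.2% passed in the sort, 24.0% in V2, 43.0% in V3 and 0.458% in the chimeras. The list counts are to be read beside these shares. Of the gamma chain cytokines, receptors and kinases, 10 of 13 were tested over all cells. In sorted Treg 1 was lower, the IL-7 receptor Il7r (-1.36), and none was higher. In V2 ∆Foxp3 mice 4 rose and 2 fell, among them Il15ra (1.80), Il21 (4.64) and Il7r (-0.71). In V3 4 rose and 3 fell, led by the receptors Il4ra (-1.82) and Il21r (-0.68) and the kinase Jak1 (-0.46), and in the chimeras none of the 10 passed in edgeR (3 at an unadjusted p below 0.05). The list medians were -0.15, 0.53, 0.55 and 0.00 in that order, with medians of all genes between -0.01 and 0.00.

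Among the other STAT factors, Stat3 (0.62), which transduces IL-6 and IL-21 signals, and Stat2 (0.97), which acts in interferon responses, rose in V2 ∆Foxp3 mice. In V3 Stat4 (0.83), the IL-12 signal transducer, rose. Of the 5 genes of this list, 3 rose in V2, 1 rose and 1 fell in V3, and 1 was higher in sorted Treg. None of them passed in the chimeras (edgeR). Of the 7 other SOCS and PIM genes, Socs3 (1.68) and Pim2 (1.03) rose in V2, and none passed in sorted Treg, V3 or the chimeras (edgeR). At an unadjusted p below 0.05, 2 of the 7 were found in sorted Treg, 1 in V3 and 0 in the chimeras.

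Of 18 other STAT5 target genes, 7 were higher and 1 lower in sorted Treg, including the TNF receptors Tnfrsf18 (GITR, 2.31), Tnfrsf4 (OX40, 4.97) and Tnfrsf9 (4-1BB, 3.56), with Id2 lower (-1.27). In V2 ∆Foxp3 mice 12 rose and none fell, with the cytotoxic protease Gzmb at 5.06, the survival gene Bcl2 at 1.06 and Tnfrsf4 at 1.98. In V3 8 rose and 3 fell, with Il18r1 (2.78) and Id2 (2.80) higher and the cell cycle gene Ccnd2 (-1.11) lower. In the chimeras Tnfrsf9 alone fell (-1.73). The list medians were 0.84, 0.79, 0.69 and -0.16. Many of these genes also mark activated T cells and respond to other signals, so the list is not specific to IL-2.

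Within Treg-class cells the STAT5 targets were mixed: 5 rose and 1 fell of 16 tested in V2, 2 rose and 2 fell of 14 in V3, and 2 of 14 fell in the chimeras. Of all genes tested in these cells, 16.3%, 7.09% and 0.359% passed in that order. Tnfrsf9, a marker of stimulated Treg, fell in all 3 (-1.23, -3.89 and -1.92), as Il2ra did. Id2 rose in V2 (3.53) and V3 (3.16), and in the chimeras Tnfrsf4 fell (-1.15) beside Tnfrsf9. In resting-labelled Tconv of the chimeras the same pair, Tnfrsf4 (-1.23) and Tnfrsf9 (-1.003), fell.

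Genes whose levels were most like each member's were sought over 36 V3 sums (sample by class) among 5268 genes, by Pearson r of log2 CPM. The sums share libraries and classes, so r is a description. For Il2ra these were 2810474O19Rik (0.917), Ctla4 (0.909) and Ikzf4 (0.903), and for Pim1 they were 2810474O19Rik (0.921), Tnfrsf18 (0.914) and Ikzf4 (0.910). For Cish they were Tnfrsf18 (0.923), Coro2a (0.923) and Tnfrsf4 (0.904), for Il2rb Hopx (0.976), Rab8b (0.958) and Mdfic (0.954), and for Socs2 Samsn1 (0.875), Gimap7 (0.868) and Fam129a (0.866).

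Socs1 was closest to Gpr83 (0.897), Lrrc32 (0.869) and Bmyc (0.841). Il2rg was closest to Trim30a (0.762), Samhd1 (0.759) and Ifi27l2a (0.755), Stat5b to Xpo6 (0.754), Pcm1 (0.743) and Chd8 (0.735), and Stat5a to Gbp4 (0.694), Sigirr (0.652) and 2310047M10Rik (0.632). Among the members themselves the closest pair was Il2ra and Pim1 (r = 0.93) and the most distant was Il2rg and Stat5a (r = 0.06).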

How the data were processed

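UMI counts per gene and cell were deposited by the authors as 1 raw, unnormalized matrix, with cell annotations (sample, channel, class and cluster), made with Cell Ranger 3.0.2 on mm10, per the submitters' processing notes. The deposited percent of mitochondrial UMIs per cell was used only to describe depth, and 49 annotation columns were not used. The kit was taken from the labels; the deposited cell annotation names V3 for every cell, V2 samples included. The treatment of doublets was not stated in the sources used here, and no caller was run.

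Counts were summed per sample over all cells and per deposited class (samples with at least 20 cells of it), and expressed as CPM. edgeR 4.0.16 (R 4.3.3) fitted quasi-likelihood F tests with TMM factors and filterByExpr (minimum count 10). Fold changes include these scaling factors and the printed CPM do not, so a fold change can differ from the ratio of the CPM. V2 had its own fit and the 14 V3 samples shared another. A gene was called at a Benjamini-Hochberg adjusted p below 0.05 over all genes tested, with no fold threshold. SE is the absolute log2 fold change divided by the square root of F. Classes and clusters are compared without a test. Exact (Clopper-Pearson) 95% intervals and the limit of 3 counts behind a 0 cover counting error only. Fits over all cells were tested on simulated data, with changes placed only in genes with a mean above 20 CPM. Of 2-fold changes, 99% were recovered in V2, 88% in the sort, 96% in V3 and 100% in the chimeras. These shares are averages over genes and depend on how many changes were placed, so they do not hold for each gene. In the chimera cells Il2rb, at -0.98 ± 0.32 on the log2 scale, was not called (adjusted p = 0.219, edgeR). Changes in lower genes and fits within classes were not simulated, so recovery there is not known. No 2 samples of a group agreed within sampling noise (chi-square per degree of freedom 2.15 to 12.6).

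Chimera samples of the same number come from 1 recipient by their labels, so the recipient was used as a block in an alternative fit; deviations of same-recipient samples correlated at 0.060, 0.022 and 0.053. The members and gene lists were chosen with earlier results of these data known. All 9 members are named in every comparison, of each other list up to 3 genes with the lowest p past the threshold, and for each member the 3 genes of highest r (mean of at least 20 CPM, prior count 2). Alternatives were DESeq2 1.42.0, its size factors, no filter, the block, leaving out each sample, at least 50 cells, and leaving out cells with UMIs of at least 2 marker genes of other cell types. Chosen after seeing the data were the channel as a term, a limit of 4 such genes, leaving out chimera mouse 2 or the 2 samples of conflicting strain, and the intact-against-chimera difference within classes. Some genes of the other lists are not reported here.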

Additional observations from a re-analysis of the deposited data

Results flagged for a closer look

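The genotype effect (∆Foxp3 over WT) differed between intact V3 mice and chimeras, by a test of the difference itself in edgeR, for the following genes; values are effect in intact mice minus effect in chimeras, on the log2 scale. Over all cells these were Socs2 (3.82 ± 0.74 SE), Cish (3.12 ± 0.26), Il2rb (3.08 ± 0.50), Il2ra (1.4997 ± 0.44), Pim1 (0.66 ± 0.16) and Il2rg (-0.60 ± 0.10). In Treg-class cells it was Cish (1.76 ± 0.43), and in activated Tconv Cish (1.71 ± 0.43) and Il2rg (-0.78 ± 0.18). In cells labelled resting Tconv these were Socs2 (4.95 ± 0.66), Il2rb (4.87 ± 0.39), Cish (3.34 ± 0.37), Il2ra (2.32 ± 0.45), Stat5a (0.73 ± 0.23), Pim1 (0.41 ± 0.13), Socs1 (0.41 ± 0.14) and Il2rg (-0.50 ± 0.11). Among these resting-class values, Stat5a (0.58 to 0.59 without WT replicate 2 of 9 weeks or chimera WT replicate 2), Socs1 (0.28 to 0.39 without WT replicate 1 of 9 weeks, V3 ∆Foxp3 replicate 2, chimera WT replicate 1 or chimera ∆Foxp3 replicate 1) and Pim1 (0.33 to 0.35 without WT replicate 2 of 9 weeks or V3 ∆Foxp3 replicate 1) did not pass when those samples were left out, nor with DESeq2. The intact comparison sets mice of 3 weeks beside mice of 9 weeks, so age cannot be told apart from genotype in its part of the difference. No group had 4 or more samples, so no check for single outlying samples was made.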

How the results depend on the processing

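Of the members' log2 fold changes under the alternatives, 1982 kept their side of the threshold, 97 lost and 84 gained a call, and none changed direction on a called value. Values that were not called could change sign. Stat5a over all chimera cells went from 0.08 to -0.14 without the samples of conflicting strain. Over all chimera cells, 2 members were called. The count was 5 without the filter on low counts, 1 without cells holding 2 or more markers of other types, 5 without chimera mouse 2 and 4 without the samples of conflicting strain. The number of all genes called moved as well, from 50 to 151 without the samples of conflicting strain. Numbers of all genes are not given for the other counts below. Changes in those counts are therefore not results about the members alone. In Treg-class cells, V3 (2 called) gave 1 with DESeq2 and 1 without cells holding such markers. The chimeras (2 called) gave 1 with DESeq2 and 4 without the filter, with the replicate block, without marker-holding cells and without the conflicting samples. Their difference from intact mice (1 called) gave 2 without the filter and with the replicate block, and 3 without marker-holding cells, without mouse 2 and without the conflicting samples. In activated Tconv, V2 (5 called) gave 2 with DESeq2, V3 (2 called) gave 4 without the filter and 4 with the replicate block, the chimeras (0 called) gave 1 without the filter, and the difference (2 called) gave 5 without the filter, 1 without marker-holding cells and 4 without mouse 2. In resting Tconv, V3 (8 called) and the difference (8 called) each gave 5 with DESeq2, and the chimeras (1 called) gave 2 without the filter or mouse 2 and 0 without marker-holding cells or the conflicting samples. The cause was not tested; the filter on markers removed 27.6% to 70.6% of cells per sample. At least 4 such genes removed 1.10% to 13.2% and moved no count by more than 1.5 times.

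Leaving out 1 sample at a time, members called ranged from 3 to 6 in the sort, 3 to 7 in V2, 4 to 5 in V3, 1 to 5 in the chimeras and 5 to 7 for the difference. In Treg-class cells the ranges were 2 to 4, 1 to 2, 1 to 4 and 0 to 3, in activated Tconv 3 to 5, 0 to 2, 0 to 0 and 0 to 3, and in resting Tconv 3 to 8, 5 to 7, 0 to 1 and 6 to 8, for V2, V3, the chimeras and the difference in that order. Where 1 sample of a group is left, it is taken to vary like the other groups. With at least 50 Treg-class cells no WT sample of 9 weeks was left, so V3 gave no value there. Outside the chimeras replicate numbers share only a number or a tube; same-number deviations correlated at 0.077 in V2, 0.098 in the sort and 0.140 in V3. Beside those named, the replicate block moved no count of members by over 1.5 times. Il2ra in the chimeras over all cells ranged from -1.79 to -2.47 when each sample was left out and was called each time.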
